A study of Mus musculus with 6 samples.

Results

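The nuclear-encoded subunits of the mitochondrial respiratory chain were followed in mouse colon RNA-seq libraries. Members were taken by gene symbol alone, as the genes named Ndufa, Ndufb, Ndufc, Ndufs or Ndufv with a number, the genes Sdha to Sdhd, and the genes whose names start with Uqcr, Cox4 to Cox8 or Atp5. The symbols gave 80 members among the 16906 genes counted. By complex they were 34 genes of complex I, 4 of complex II, 8 of complex III, 16 of complex IV and 18 of complex V. Ndufa4 and Ndufa4l2 were counted with complex IV, since Ndufa4 is a subunit of cytochrome c oxidase despite its name. A few members carry the name without being subunits. Atp5l-ps1 is a processed pseudogene in the gene annotation used, Atp5sl is there called Dmac2 and is an assembly factor of complex I, and Atp5s encodes the coupling factor B. Subunits outside these symbols, such as Cyc1, were described only as related genes. Ndufs6, Cox5b and Cox6a2 would match the symbols, but none of the genes counted carried these names, so they were not analysed here.

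The respiratory chain sits in the inner mitochondrial membrane. Complex I takes electrons from NADH and complex II from succinate, both pass them to ubiquinone, complex III hands them on to cytochrome c, and complex IV gives them to oxygen. The proton gradient built on the way drives complex V, the ATP synthase. A small core of subunits is made inside the organelle from mitochondrial DNA, while all of complex II and most subunits of the others are nuclear-encoded and imported. Colonocytes depend on this chain to oxidise butyrate, their main fuel, which gut bacteria supply.

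The libraries came from colon tissue of wild-type C57BL/6J mice (strain C57 in the sample labels), all male, 6 to 8 weeks old and 20 to 22 g in weight. The normal group (n = 3 libraries) had normal feeding. The TNBS group (n = 3) had 2,4,6-trinitrobenzenesulfonic acid at 5% w/v put into the colon through the anus, which induces a colitis used as a model of inflammatory bowel disease. No instilled vehicle is named for the normal group, so the procedure itself and TNBS cannot be told apart. The labels do not say whether the libraries of a group came from separate mice. The Y-linked levels of TNBS 1 and TNBS 2, given below, differ too far for repeats of 1 mouse, while for the normal group the spread behind a p-value may be technical.

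Libraries held 15185569 to 23380492 counts, TNBS 2 the fewest. With scaling to total counts alone, 3 counts corresponded to 0.128 to 0.198 CPM, which are counts scaled to the size of the library. The levels given below in CPM are also scaled with TMM factors, so this floor is only approximate for them. Summed Y-linked transcripts stood at 92.1% to 114% of the normal mean in the normal libraries and in TNBS 2 at 103%, but at 0.697% in TNBS 1 and 38.2% in TNBS 3, which goes against the male label of TNBS 1. TNBS 2 and TNBS 3 also stood apart in Hoxb6, a marker of position along the gut, with 79.3 and 80.6 CPM against 3.36 to 11.5 in the other 4 libraries. Hoxb13, expressed towards the hind end, was at 106, 57.7 and 7.37 CPM in normal 1 to 3 and at 21.4, 0.194 and 0.308 CPM in TNBS 1 to 3, so that normal 3 also differed from the other normal libraries. Position along the colon, if these levels mark it, cannot be told apart from TNBS in this design, and its part was not tested. The 5 mitochondrially encoded genes in the table took 3.92% of the counts of TNBS 2 and 1.95% of TNBS 3, against 0.563% to 0.951% in the other 4. For that reason levels are shown library by library for the main subunits described.

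No respiratory chain subunit passed the test between TNBS and normal colon. Of the 80 members, 77 had enough counts to be tested, and 0 were called higher and 0 lower at an adjusted p under 0.05 (edgeR quasi-likelihood test, Benjamini-Hochberg adjustment over 14126 genes), where 0.906% of all tested genes were called higher and 1.14% lower by the same test. With an unadjusted p under 0.05 there were 7 members with a positive and 4 with a negative log2 fold change, that is 9.09% and 5.19% of those tested, against 10.8% and 10.2% of all genes. DESeq2 called 1 member higher, Cox7a2l, where it called 4.47% of all genes higher and 4.32% lower; limma-voom called 0 members where it called 0.566% higher and 1.03% lower. The fitted log2 fold changes ran from -1.03 (Cox7a1) to 1.01 (Cox7a2l), and 57 of 77 were above 0 (74.0%, against 50.6% of all tested genes), with a median of 0.18 beside 0.0073 over all genes. In whole tissue, fewer cells of a type and less RNA per cell cannot be told apart.

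The intervals around these fold changes show how precisely each gene's difference was estimated from these libraries. For 50 of 77 members the 95% interval lay within a 2-fold change in either direction (64.9%, against 43.2% of all tested genes). A 2-fold fall lay outside the interval of 72 members and a 2-fold rise outside that of 52. The shares over all genes were not computed for these counts, so they show nothing particular to the members. The groups did not overlap for 11 members higher with TNBS (14.3%, against 15.3% of all genes) and for 6 lower (7.79%, against 14.8%). Those higher were Ndufa7, Ndufa11, Ndufa13, Ndufb11, Ndufs7 and Ndufv3 of complex I, Cox6b2 and Cox7a2l of complex IV, and Atp5d, Atp5g2 and Atp5g3 of complex V. Those lower were Ndufa9, Ndufb2, Ndufs1, Uqcrb, Cox7a1 and Atp5f1.

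**Figure D1:**
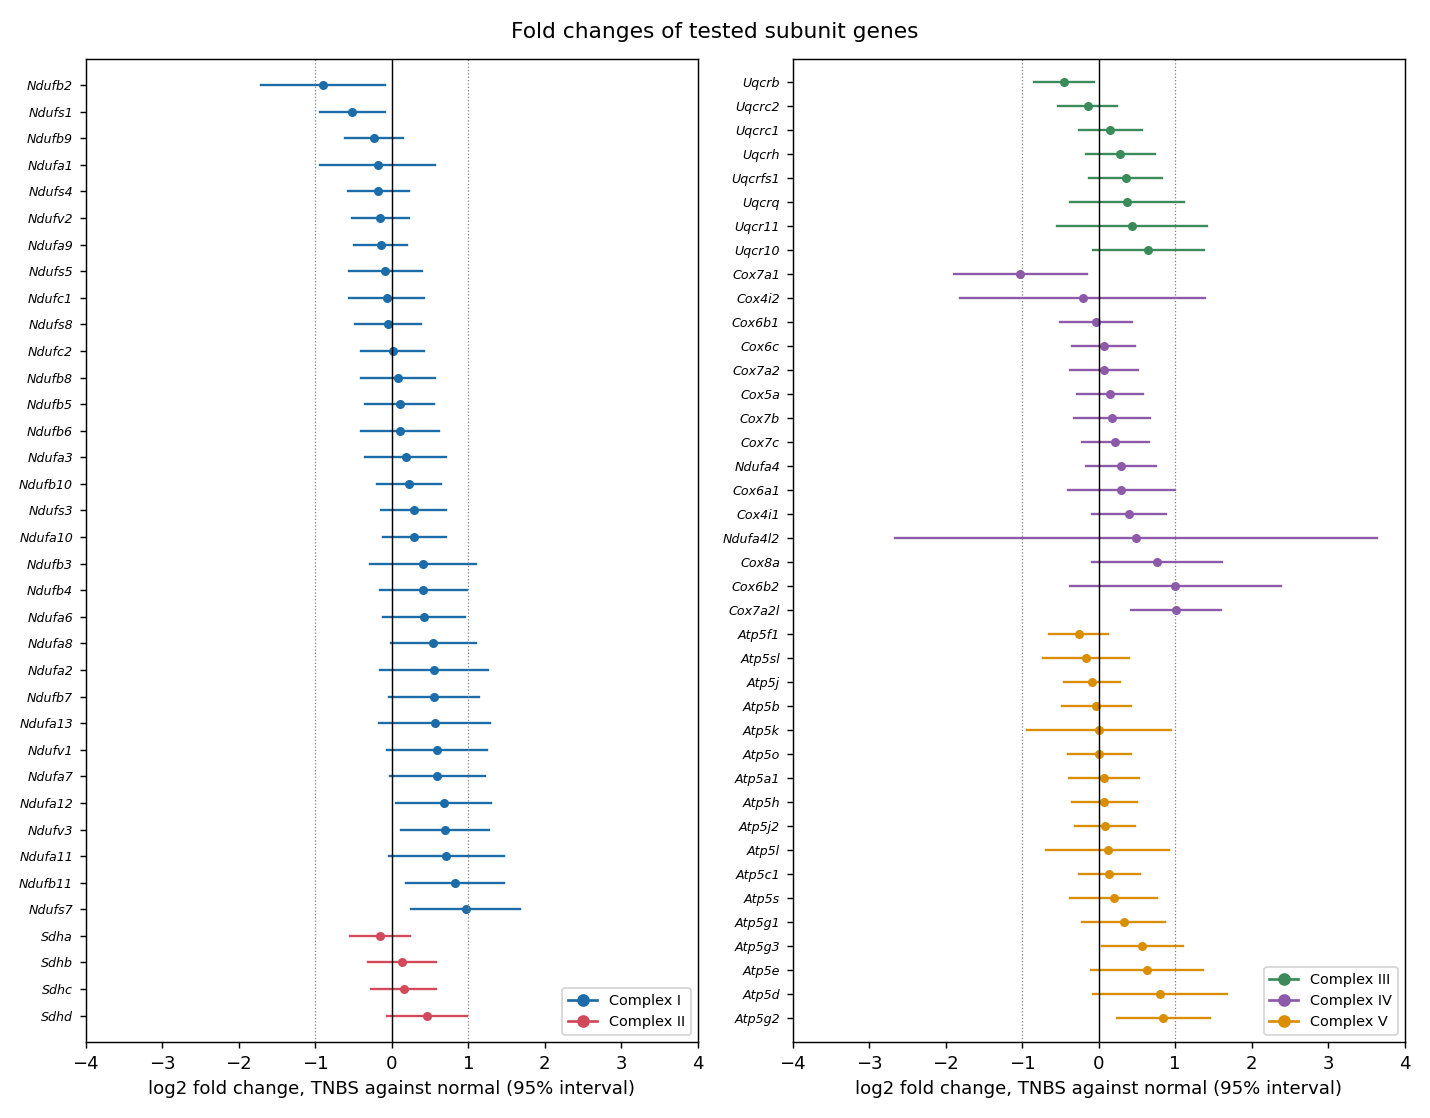
The plot of fold changes gives the tested subunit genes, all but 1, each as a point with its 95% interval, on a log2 axis of TNBS against normal, coloured by complex; dotted lines mark 2-fold changes and complexes are ordered from I to V. Most points lie between 0 and 1, Cox7a2l is the highest at 1.01 and Cox7a1 the lowest at -1.03, and the widest interval belongs to the scarce Ndufa4l2.

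Much of the spread followed single libraries rather than the groups. TNBS 2 held the highest level of 52 members (67.5%, against 27.8% of all tested genes) and normal 3 the lowest level of 51 (66.2%, against 29.9%). Relative to the normal mean, the median log2 shift over the members was 0.010 in normal 1, 0.21 in normal 2 and -0.25 in normal 3, and 0.029 in TNBS 1, 0.43 in TNBS 2 and 0.13 in TNBS 3. TNBS 1 thus lay between normal 1 and normal 2. The median fold change of the members was 0.060 without TNBS 2, 0.079 without normal 3 and -0.054 without both, the last an alternative added after the data had been seen. The number of members with a value above 0 was then 47, 47 and 34. The members' medians were highest in TNBS 2 and lowest in normal 3. Leaving those libraries out was therefore bound to lower the fold changes and is no separate test.

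The summed level of all members was also highest in TNBS 2 and lowest in normal 3. It was 10594, 11885 and 9727 CPM in normal 1 to 3 (10735 ± 1086, SD) and 10318, 13395 and 11130 CPM in TNBS 1 to 3 (11614 ± 1595, SD), so the groups overlapped. As a share of all counts the members took 1.06%, 1.12% and 0.891% in the normal libraries and 1.11%, 1.36% and 1.18% in the TNBS libraries. Complex V made up the largest part of the sum, at 4340 to 5119 CPM in the normal and 4450 to 5585 CPM in the TNBS libraries.

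**Figure D2:**
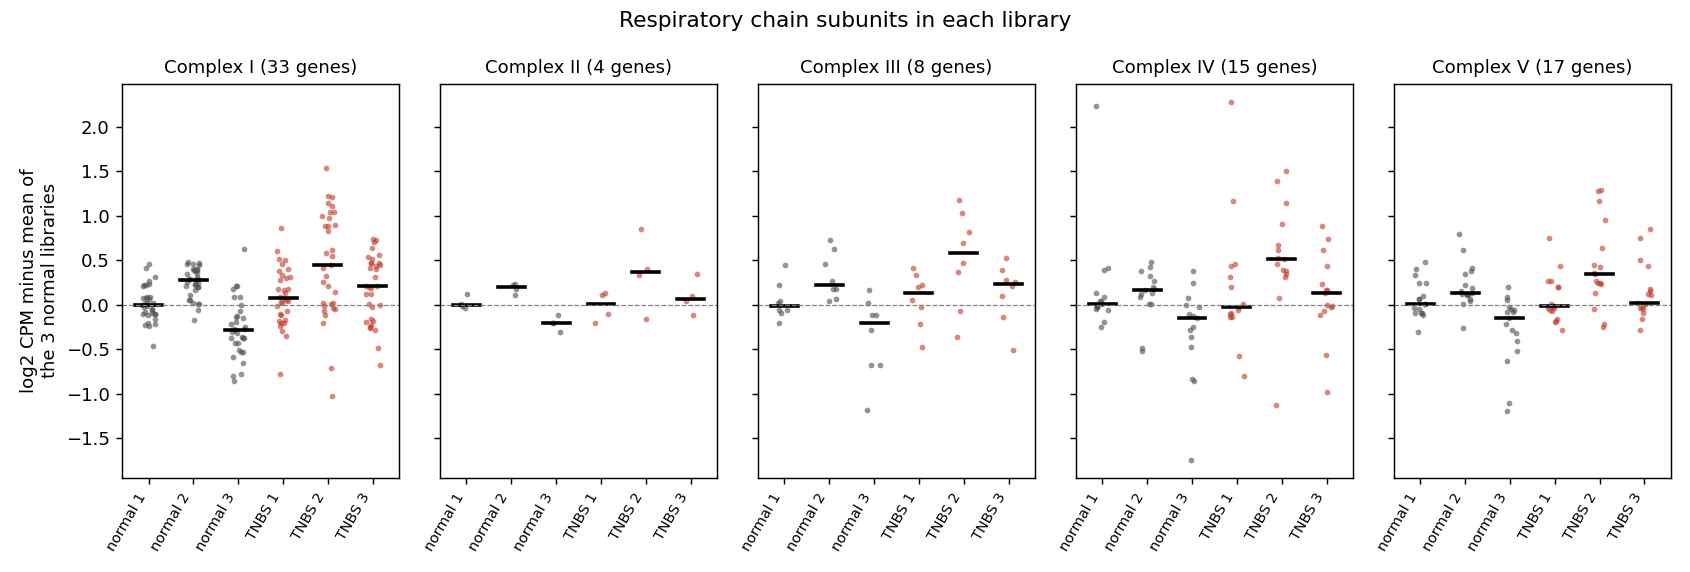
The plot of shifts has 1 panel for each complex; each point is a tested gene, the vertical axis its log2 CPM minus the mean of the normal libraries, and black bars are medians. In every complex the TNBS 2 median is the highest of the 6 libraries and the normal 3 median the lowest, with complex I at 0.45 and -0.28.

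In normal 3 some small subunits were far below every other library. Uqcr11, of complex III, was at 10.5 CPM there against 31.5 to 49.2 CPM in the other 5 libraries, and Atp5k, the e subunit of complex V, at 13.8 against 34.0 to 54.8 CPM. Cox6a1 and Cox8a, small subunits of complex IV, were at 48.3 and 41.8 CPM in normal 3, against at least 101 and at least 94.2 CPM elsewhere. The fitted log2 fold changes of these genes were 0.43, 0.0076, 0.30 and 0.77, and the groups overlapped for all 4.

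The shifts also went with the base composition of the transcripts. For each library, the log2 level of a gene was taken minus its mean over all 6 libraries. In normal 3, this difference had a Spearman correlation of -0.52 with the GC content of the longest transcript across 14052 genes. Across the 77 members it was -0.55. In the TNBS libraries the correlations were 0.22 to 0.27 across all genes and 0.38 to 0.41 across members. The mean includes every library, so a trend in normal 3 moves the values of the others the opposite way. Genes of a library share its preparation and depth, so these correlations are descriptions. The 39 members with the higher GC content had a median log2 fold change of 0.41 and the other 38 a median of 0.11. The correlation of the fold change with GC content was 0.44 across members and 0.33 across the 14052 genes, so the trend was one of the whole table. After an adjustment of each library for GC content, added after the data had been seen, the members' median was 0.18 and still 0 were called. The part of GC content in the results below was tested only by that adjustment.

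**Figure D3:**
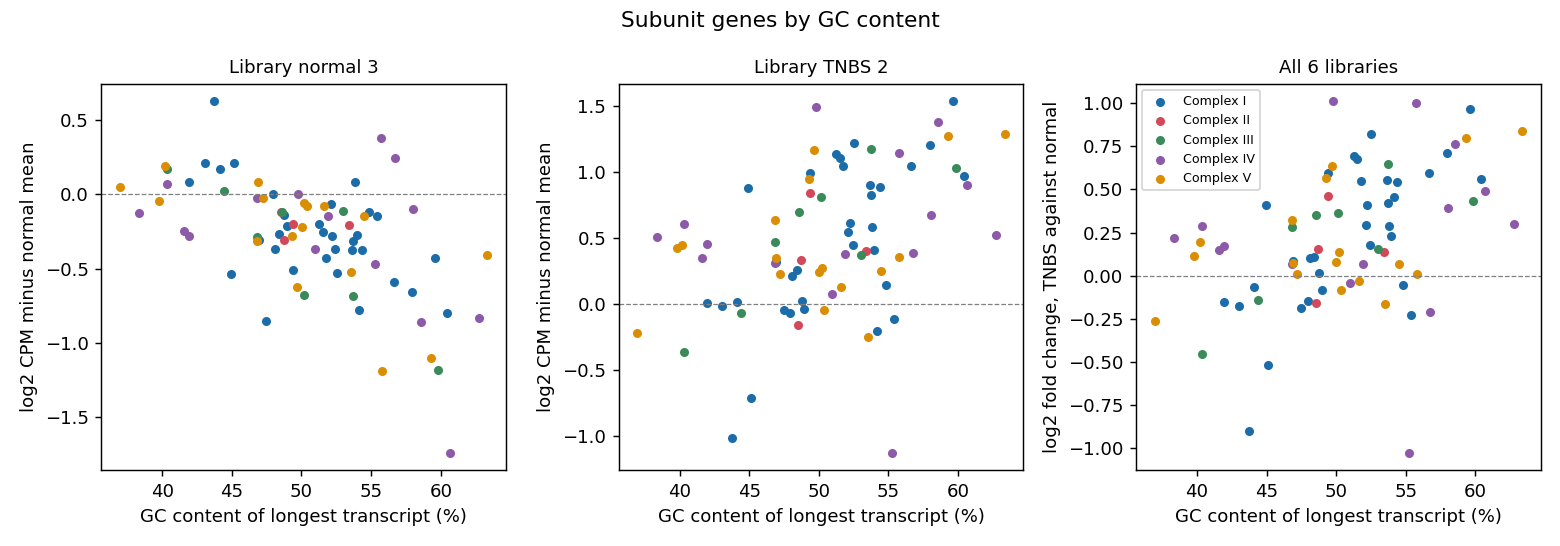
The plot by GC content places the tested members on a horizontal axis of GC content (%) of the longest transcript; the vertical axes are the log2 shift in normal 3, the log2 shift in TNBS 2, and the log2 fold change of TNBS against normal over all libraries. Points fall with GC content in normal 3 and rise with it in TNBS 2 and in the fold change. The Spearman correlations were -0.55, 0.40 and 0.44 (all genes -0.52, 0.23 and 0.33). Those of normal 3 and TNBS 2 were computed on log2 CPM minus the mean over all libraries, not on the plotted shift.

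The promoter windows of 5 members are shown because the text turns on them: Cox7a2l, Ndufs7 and Atp5g2 had the highest fold changes of complexes IV, I and V, Cox7a1 the lowest of all members, and Sdhd the highest of complex II. Each window runs from 250 bases before to 50 after the RefSeq start (build GRCm38.p6), 5′ to 3′ on the gene's strand. They lie at chr17:83514284-83514583 (minus strand), chr10:80249199-80249498 (plus), chr15:102670998-102671297 (minus), chr7:30183921-30184220 (plus) and chr9:50603800-50604099 (minus) in that order, and capitals mark matches to the 4 motifs searched.
Cox7a2l: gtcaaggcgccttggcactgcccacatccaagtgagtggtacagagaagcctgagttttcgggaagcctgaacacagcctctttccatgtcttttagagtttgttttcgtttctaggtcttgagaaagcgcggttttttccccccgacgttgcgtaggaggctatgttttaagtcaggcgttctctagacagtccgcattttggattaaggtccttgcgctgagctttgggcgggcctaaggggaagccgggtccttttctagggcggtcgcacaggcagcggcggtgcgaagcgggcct
Ndufs7: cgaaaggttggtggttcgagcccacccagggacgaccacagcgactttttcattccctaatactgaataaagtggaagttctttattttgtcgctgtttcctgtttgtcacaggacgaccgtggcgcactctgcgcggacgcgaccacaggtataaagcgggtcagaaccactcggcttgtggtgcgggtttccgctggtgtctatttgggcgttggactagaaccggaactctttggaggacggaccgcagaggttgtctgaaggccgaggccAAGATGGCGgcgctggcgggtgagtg
Atp5g2: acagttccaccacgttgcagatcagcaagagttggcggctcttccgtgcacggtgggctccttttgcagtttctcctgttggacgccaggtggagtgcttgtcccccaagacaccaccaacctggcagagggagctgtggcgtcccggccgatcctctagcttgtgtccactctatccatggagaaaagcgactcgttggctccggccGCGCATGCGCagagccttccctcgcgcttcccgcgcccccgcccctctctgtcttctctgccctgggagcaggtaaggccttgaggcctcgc
Cox7a1: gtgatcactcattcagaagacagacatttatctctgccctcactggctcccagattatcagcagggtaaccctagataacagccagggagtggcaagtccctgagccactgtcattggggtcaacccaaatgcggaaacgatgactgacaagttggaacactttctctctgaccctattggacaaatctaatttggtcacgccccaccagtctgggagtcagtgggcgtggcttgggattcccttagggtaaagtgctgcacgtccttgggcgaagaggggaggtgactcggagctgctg
Sdhd: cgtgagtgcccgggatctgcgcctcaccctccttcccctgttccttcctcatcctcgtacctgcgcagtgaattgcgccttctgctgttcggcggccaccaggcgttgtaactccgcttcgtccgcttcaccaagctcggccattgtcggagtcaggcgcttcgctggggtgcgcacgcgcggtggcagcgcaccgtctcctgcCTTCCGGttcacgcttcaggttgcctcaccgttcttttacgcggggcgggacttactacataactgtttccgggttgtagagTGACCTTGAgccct

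The motifs were chosen as those of known regulators of respiratory genes, searched on both strands: GCGCA followed by its reverse complement for nuclear respiratory factor NRF1, CCGGAAG for ETS factors such as GABPA, AAGATGGCG for YY1 and TNAAGGTCA for the oestrogen-related receptors. Ndufs7 carried the YY1 letters from position 275 of the window, Atp5g2 the NRF1 letters from position 209, and Sdhd the ETS letters from position 205 and the receptor letters from position 287, both on the other strand. Cox7a2l and Cox7a1 carried none, which says only that these letters are not in these windows. A window was found for 66 members, 72 windows in all. The NRF1 letters were in 5 of these (6.94%, against 0.971% of 32851 windows of all genes and 1.81% of 13837 windows of tested genes). The YY1 letters were in 8 (11.1%, against 1.40% and 2.56%), from 7 genes, with 2 windows of Atp5sl, which is no subunit, and the ETS letters in 16 (22.2%, against 8.86% and 15.3%). The receptor letters were in 3 (4.17%, against 1.28% and 0.730%), those of Atp5g3, Ndufb4 and Sdhd. The ETS and YY1 motifs can share letters and overlapped in 0 of the 72 windows. A match is a description of the sequence, not a binding site.

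Complex I, the NADH dehydrogenase, had 33 tested members, 23 of them with a log2 fold change above 0, and a median of 0.29. Ndufs7 had the highest fold change. It encodes a subunit of the Q module, which carries electrons to ubiquinone (chr10:80249121-80256794), and it was at 24.7, 24.4 and 15.7 CPM in normal 1 to 3 and 30.3, 61.7 and 35.0 CPM in TNBS 1 to 3. All TNBS libraries lay above all normal ones, TNBS 2 farthest, and the log2 fold change was 0.97 (SE 0.31, adjusted p = 0.141). It was 0.60 without TNBS 2 and 0.53 after adjustment for GC content.

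Ndufb2, an accessory subunit of the membrane arm that pumps protons (chr6:39592574-39603382), had the lowest fold change of complex I. It was at 8.16, 9.97 and 17.4 CPM in the normal and 6.54, 5.50 and 6.98 CPM in the TNBS libraries, without overlap (log2 fold change -0.90, SE 0.36, adjusted p = 0.203). Normal 3 was the highest, and without it the value was -0.51. The gene overlaps Braf on the opposite strand, and the sources used here do not say whether counting used strand. Other members that overlap a gene on the opposite strand include Ndufa13, Cox4i1, Atp5a1 and Atp5d.

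Ndufs1, the large iron-sulphur subunit of the N module where NADH is oxidised, was at 225, 240 and 290 CPM in the normal and 196, 153 and 179 CPM in the TNBS libraries. These groups did not overlap either (log2 fold change -0.51, SE 0.19, adjusted p = 0.173), and TNBS 2 was the lowest library, unlike for most members. Ndufs1 overlaps Eef1b2 on the opposite strand. Ndufv3, an accessory subunit of the same module, went the other way, at 48.3, 48.8 and 39.5 CPM in the normal and 50.8, 99.9 and 70.6 CPM in the TNBS libraries (0.70, SE 0.25, adjusted p = 0.174). TNBS 1 stood just above normal 2, and without TNBS 1 Ndufv3 was called (log2 fold change 0.90, adjusted p = 0.0445), in a fit that called 3.67% of all genes higher and 3.97% lower. Without TNBS 2 it was at 0.42 (adjusted p = 0.490), and with TNBS 1 as the only TNBS library at 0.16.

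Fitted values within a module thus pointed both ways. The N module had a median log2 fold change of 0.55 over 9 tested genes (6 above 0), the Q module 0.37 over 4 (3 above 0) and the membrane arm 0.14 over 20 (14 above 0). Ndufb11, an X-linked subunit of the membrane arm, had the second highest value of complex I (0.82, SE 0.28, adjusted p = 0.153). Its level was 35.3, 46.3 and 23.3 CPM in the normal and 51.1, 78.7 and 56.0 CPM in the TNBS libraries, without overlap, and normal 3 was the lowest.

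Per kilobase of exons Ndufb9, of the membrane arm (chr15:58933756-58939488), was the most abundant gene of complex I. It was at 108, 128 and 101 CPM in the normal and 90.8, 103 and 92.9 CPM in the TNBS libraries, overlapping (log2 fold change -0.23, SE 0.17, adjusted p = 0.457). The value was -0.11 without normal 2 and -0.46 after adjustment for GC content. The other tested members of complex I ran from -0.19 (Ndufa1) to 0.71 (Ndufa11). Ndufa5, a subunit of the Q module, did not pass the count filter, with 8, 7 and 3 counts in the normal and 6, 22 and 14 in the TNBS libraries.

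Complex II, succinate dehydrogenase, is the only complex whose subunits are all nuclear-encoded and the one that also works in the tricarboxylic acid cycle. None of its 4 genes passed the test, and each 95% interval lay within a 2-fold change. Sdha, the flavoprotein that oxidises succinate (chr13:74322254-74350280), was at 478, 511 and 438 CPM in the normal and 413, 424 and 440 CPM in the TNBS libraries (log2 fold change -0.16, SE 0.17, adjusted p = 0.625). The highest TNBS library lay just above the lowest normal one. Sdhb, the iron-sulphur subunit (chr4:140961203-140979193), was at 123, 146 and 108 CPM against 116, 165 and 133 CPM (0.14, SE 0.20, adjusted p = 0.720).

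The groups overlapped for both membrane anchors. Sdhc (chr1:171127165-171150603) was at 106, 110 and 78.6 CPM in the normal and 105, 123 and 100.1 CPM in the TNBS libraries (log2 fold change 0.15, SE 0.19, adjusted p = 0.668). Sdhd (chr9:50596357-50603812) was at 242, 290 and 214 CPM against 271, 444 and 315 CPM (0.46, SE 0.23, adjusted p = 0.285). TNBS 2 and TNBS 3 lay above every normal library and TNBS 1 below normal 2, and the value was 0.24 without TNBS 2. Sdhd was the most abundant of the 4 per kilobase and ranked 6 among all members, at 240 CPM per kilobase.

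Complex III, the cytochrome bc1 complex, had 8 tested members with a median log2 fold change of 0.32, and 6 were above 0. Uqcrb, a small subunit near the ubiquinone site and the most abundant of complex III per kilobase (chr13:66900617-66905378), was the exception that separated the groups. It was at 216, 257 and 281 CPM in the normal and 180, 194 and 176 CPM in the TNBS libraries. The TNBS libraries were thus the lowest 3 (log2 fold change -0.45, SE 0.17, adjusted p = 0.192), and after adjustment for GC content the value was -0.20. Of its 50-base transcript stretches 25.5% occur in other genes, and it overlaps Gm10767 on the opposite strand, so its count is uncertain.

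Uqcr10, another small subunit of complex III (chr11:4701973-4704342), had the highest value there, with 67.4, 79.6 and 36.0 CPM in the normal and 72.7, 131 and 83.2 CPM in the TNBS libraries (log2 fold change 0.65, SE 0.32, adjusted p = 0.284). TNBS 1 lay below normal 2, and the value was 0.36 without TNBS 2, 0.38 without normal 3 and 0.087 without both. TNBS 2 was the highest and normal 3 the lowest library for this gene, so these falls were bound to follow. The core proteins Uqcrc1 and Uqcrc2 were at 0.15 and -0.14, and Uqcrfs1, the Rieske iron-sulphur protein, at 0.35.

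Complex IV, cytochrome c oxidase, had 15 tested members, a median log2 fold change of 0.22 and both extremes of the whole set. Cox7a2l encodes a relative of the subunit Cox7a (chr17:83501918-83517330). Its level was 37.2, 37.9 and 37.6 CPM in normal 1 to 3, closely alike (37.6 ± 0.385, SD), and at 51.5, 106 and 69.5 CPM in the TNBS libraries (75.8 ± 28.0, SD). Every TNBS library lay above every normal one, TNBS 1 least, at a fold change of 2.02 (95% interval 1.34 to 3.03; log2 1.01, SE 0.26, adjusted p = 0.0876).

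The call of Cox7a2l depended on the tool and on the libraries. The adjusted p was 0.0126 with DESeq2, 0.0176 without TNBS 1 and 0.0205 with TNBS 2 as the only TNBS library, in which the lone library is assumed to vary like the normal ones and 2.26% of all genes were called higher and 3.21% lower. The log2 fold change was 1.02 after adjustment for GC content and 0.69 without TNBS 2, and over all 18 alternatives it ran from 0.46 to 1.496 with adjusted p from 0.0126 to 0.908. Of the 50-base stretches of its transcripts 13.8% occur in other genes, the pseudogene Gm6969 among them.

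Cox7a1, the Cox7a isoform of heart and skeletal muscle (chr7:30184144-30186078), lay at the other end. It was at 7.33, 9.02 and 4.95 CPM in the normal and 3.91, 3.10 and 3.44 CPM in the TNBS libraries. The groups did not overlap (log2 fold change -1.03, SE 0.39, adjusted p = 0.183), and the value ran from -1.23 to -0.80 over the alternatives. Cox7a2, the isoform of most other tissues (chr9:79755361-79759878), was at 103, 118 and 94.9 CPM against 95.3, 137 and 100.4 CPM, overlapping (0.070, SE 0.19, adjusted p = 0.859).

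The ratio of the Cox7a isoforms compares them within a library, where scaling has no part. Cox7a1 counts were 7.12%, 7.64% and 5.24% of Cox7a2 counts in the normal libraries and 4.12%, 2.29% and 3.45% in the TNBS libraries. All TNBS ratios were below all normal ones, by 1.04 on the log2 scale of counts plus 0.5 (exact two-sided permutation p = 0.1, the smallest that 3 against 3 libraries allow; 0.2 after Benjamini-Hochberg adjustment over 4 isoform pairs). The colon wall holds smooth muscle. The 9 smooth muscle markers summed to 7627, 8548 and 10324 CPM in the normal and 6476, 4311 and 6986 CPM in the TNBS libraries; 0 of 9 were called and none was at 0 throughout, and their part in the Cox7a1 values was not tested. The 6 skeletal muscle markers in the table summed to 10.1 to 23.9 CPM over all 6 libraries.

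Cox4i2, the lung-enriched isoform that is induced by low oxygen (chr2:152754173-152765037), was scarce, at 1.05, 1.27 and 1.51 CPM in the normal and 0.818, 1.68 and 0.821 CPM in the TNBS libraries (log2 fold change -0.21, SE 0.71, adjusted p = 0.885). Cox4i1, the ubiquitous isoform and the most abundant of them, was at 331, 369 and 314 CPM against 338, 539 and 456 CPM, overlapping (0.39, SE 0.21, adjusted p = 0.322), and its value was 0.24 without TNBS 2 and 0.0022 after adjustment for GC content. Cox4i2 was 0.323%, 0.350% and 0.490% of Cox4i1 in the normal and 0.249%, 0.318% and 0.186% in the TNBS libraries. That ratio was lower in all TNBS libraries, by 0.64 on the log2 scale (exact permutation p = 0.1, adjusted 0.2).

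Cox6b2, the isoform best known from testis (chr7:4751792-4753094), was at 1.27, 0.770 and 1.51 CPM in the normal and 2.68, 2.65 and 1.796 CPM in the TNBS libraries. These groups did not overlap, but counts were low and the interval was wide (log2 fold change 1.0, SE 0.61, adjusted p = 0.368). Cox6b1, the general isoform and the most abundant member of complex IV per kilobase of exons, though behind Cox4i1 per kilobase of longest transcript (chr7:30616861-30626151), was at 222, 270 and 168 CPM against 201, 228 and 213 CPM (-0.041, SE 0.21, adjusted p = 0.925), a value whose sign turned when scaling used total counts alone (0.096). The ratio of Cox6b2 to Cox6b1 differed by 1.04 on the log2 scale and overlapped (exact permutation p = 0.2, adjusted 0.267).

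Ndufa4, the subunit once placed in complex I (chr6:11900292-11907497), was at 66.0, 81.7 and 79.1 CPM in the normal and 86.5, 115 and 75.2 CPM in the TNBS libraries (log2 fold change 0.29, SE 0.20, adjusted p = 0.438), a value of 0.099 without TNBS 2 and 0.54 after adjustment for GC content. Its hypoxia-induced relative Ndufa4l2 was at 1.44, 0.136 and 0 CPM against 1.5, 0.517 and 0.205 CPM (0.49, SE 1.39, adjusted p = 0.862). The levels of Ndufa4l2 in normal 1 and TNBS 1 were alike and above those of the other 4 libraries, and the ratio to Ndufa4 gave an exact permutation p of 0.5. Cox8a, the general isoform of subunit 8, had a value of 0.77 (adjusted p = 0.280). Its muscle isoform Cox8b had 2 counts in all, both in TNBS 1.

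Complex V, the ATP synthase, had 17 tested members with the lowest median of the 5 complexes, 0.077, and 13 above 0. Atp5a1, the alpha subunit of the catalytic head, was the most abundant member of the whole set per kilobase, at 438 CPM per kilobase, followed by the beta subunit Atp5b at 323. Atp5a1 was at 1346, 1464 and 1210 CPM in the normal and 1284, 1587 and 1340 CPM in the TNBS libraries (log2 fold change 0.067, SE 0.20, adjusted p = 0.870). The groups overlapped, and the 95% interval of the fold change ran from 0.763 to 1.44. Atp5b was at -0.030 and Atp5c1, the gamma subunit of the central stalk, at 0.14.

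The genes of the c ring, the rotor in the membrane that protons turn, had fitted values above 0. Atp5g1, Atp5g2 and Atp5g3 encode the same mature protein, and their fold changes were 0.32, 0.84 and 0.57 on the log2 scale. Atp5g2 (chr15:102662864-102672352) was at 47.1, 44.4 and 29.9 CPM in the normal and 53.5, 97.5 and 66.7 CPM in the TNBS libraries, without overlap (SE 0.27, adjusted p = 0.135). Adjustment for GC content, which is 63.4% in its longest transcript and the highest of the tested members, brought that value to 0.23, and 38.4% of its 50-base stretches occur in other genes.

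Atp5g3 was at 214, 239 and 168 CPM in the normal and 247, 397 and 278 CPM in the TNBS libraries, also without overlap (SE 0.23, adjusted p = 0.212). Its value after adjustment for GC content was 0.60, and without TNBS 2 it was 0.34. Atp5d, the delta subunit of the central stalk, had the second highest fold change of complex V (0.80, SE 0.39, adjusted p = 0.276). It was at 92.4, 102 and 30.8 CPM against 112, 160 and 120 CPM, so that normal 3 stood far below the other libraries.

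Atp5f1, subunit b of the peripheral stalk that holds the head still (chr3:105942698-105960099), had the lowest value of complex V. It was at 416, 469 and 466 CPM in the normal and 369, 386 and 370 CPM in the TNBS libraries, without overlap (log2 fold change -0.26, SE 0.17, adjusted p = 0.397). Its GC content, 37.0%, was the lowest of the tested members, and after adjustment the value was 0.0088. Atp5l-ps1 did not pass the filter, with 0 to 20 counts a library.

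**Figure D4:**
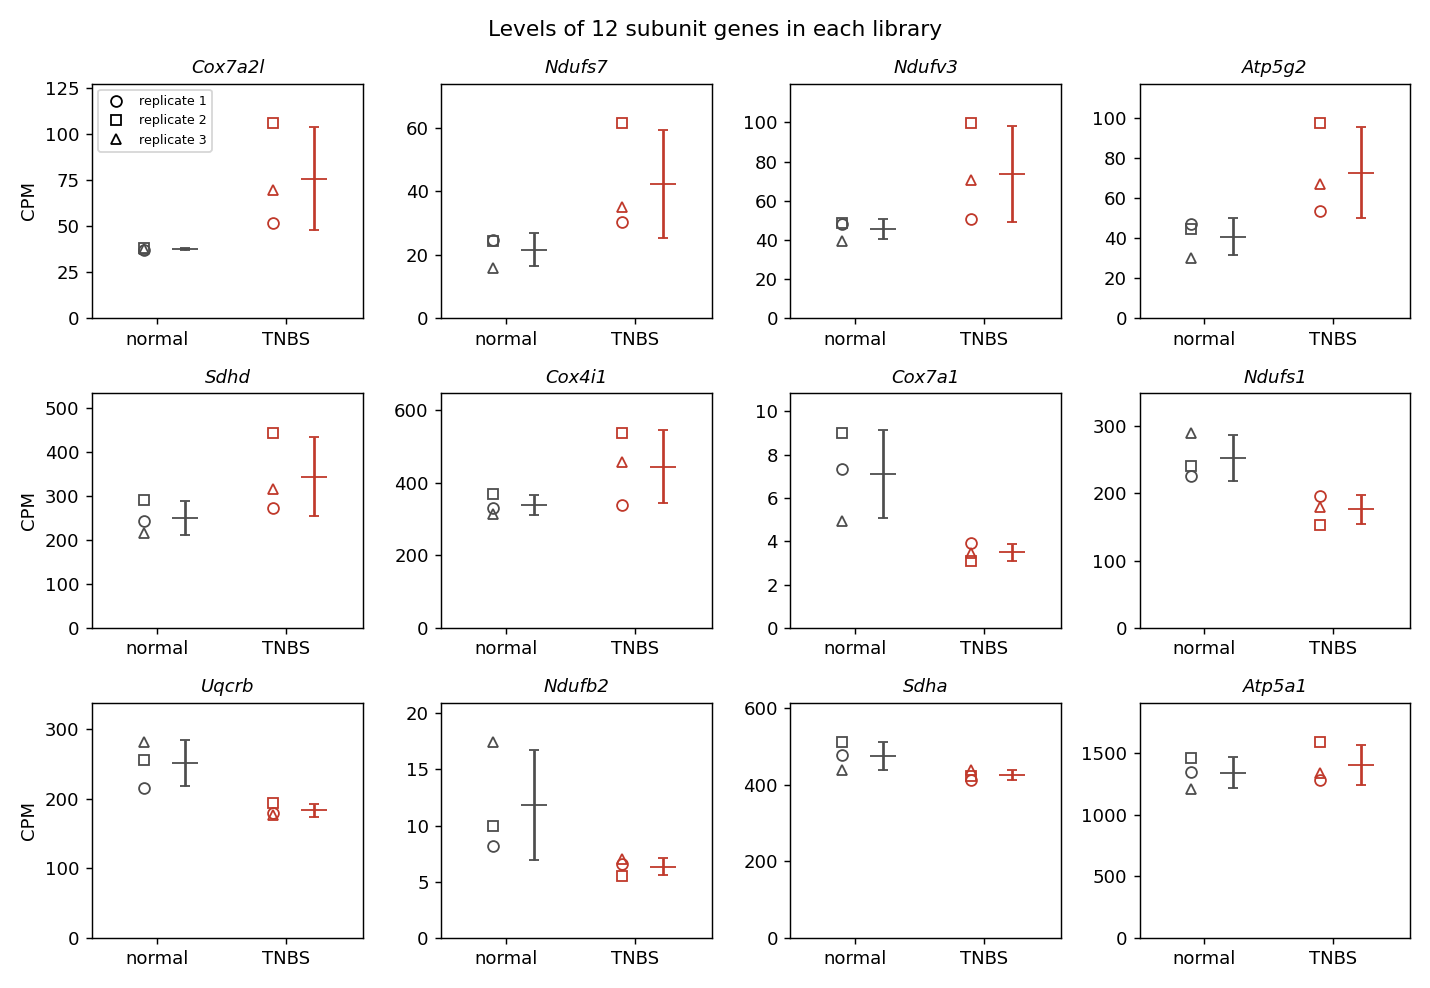
The plot of levels gives TMM-scaled CPM (vertical axes, from 0) of selected subunit genes in the normal and TNBS libraries; open symbols mark replicates 1, 2 and 3, and the bars beside them are the mean and SD of 3 libraries. Cox7a2l separates most widely from its tight normal group, at 51.5 to 106 against 37.2 to 37.9 CPM, while Ndufs1, Uqcrb, Ndufb2 and Cox7a1 lie lower in the TNBS libraries and Sdha and Atp5a1 overlap.

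Per kilobase of exons, the 10 most abundant members were Atp5a1, Atp5b, Cox6b1, Cox4i1, Uqcrb, Sdhd, Cox7b, Atp5c1, Uqcrh and Cox8a, from 438 to 180 CPM per kilobase. Neighbours in this order were often close: Cox4i1 and Uqcrb were at 252 and 248, and Cox7b and Atp5c1 at 219 and 215. With the longest transcript in place of all exons, 9 of these 10 were again among the first 10, and Atp5b then ranked 1. The lowest tested member was Ndufa4l2, at 0.578 CPM per kilobase.

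Genes around the chain were read against the shares called in the whole table, 0.906% higher and 1.14% lower, at which lists of this size hold few calls or none. Among the 20 tested electron carriers and further subunits 0 were called, and Cyc1, the haem-bearing subunit of complex III, was at 0.29 (SE 0.24, adjusted p = 0.514). Cytochrome c itself, Cycs, was at 256, 559 and 663 CPM in the normal and 375, 352 and 371 CPM in the TNBS libraries (-0.43, adjusted p = 0.461), so the normal libraries spanned the TNBS ones. The furthest from 0 in this list was Etfb, of the electron transfer flavoprotein (1.48, adjusted p = 0.253). Etfb was scarce, at 1.22, 0.408 and 1.06 CPM in the normal and 1.73, 3.17 and 2.67 CPM in the TNBS libraries. Of 48 assembly factors 0 were called, the median was -0.035, and Surf1, needed to build complex IV, was furthest (1.11, adjusted p = 0.318). Of 18 tricarboxylic acid cycle genes 0 were called, the median was -0.13, and Dld was furthest (-0.59, adjusted p = 0.284).

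The regulators of mitochondrial genes held the only call among these lists. Esrrg encodes an oestrogen-related receptor that drives oxidative genes in heart and muscle. It fell from 23.8, 11.2 and 23.3 CPM in the normal libraries to 2.27, 2.13 and 1.28 CPM in the TNBS libraries (log2 fold change -3.36, SE 0.42, adjusted p = 0.0123). The other 18 tested regulators were not called. Esrra, the related receptor, was at 55.6, 52.4 and 31.6 CPM against 57.5, 81.3 and 63.7 CPM (0.54, adjusted p = 0.259), and Nrf1, Tfam and Ppargc1b were at -0.19, -0.25 and -0.23. Of the members whose windows hold the receptor letters, Atp5g3, Ndufb4 and Sdhd were at 0.57, 0.41 and 0.46, and none was called.

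The 5 mitochondrially encoded genes, which supply core subunits of complexes I and IV in this table, had a median log2 fold change of 1.89 and 0 were called. Furthest from 0, the gene mt-Co3 was at 217, 178 and 358 CPM in the normal and 224, 3434 and 1605 CPM in the TNBS libraries (2.80, SE 0.78, adjusted p = 0.103). TNBS 1 was within the normal range, and TNBS 2, where most nuclear-encoded members also peaked, was the highest. Of 23 genes of the mitochondrial membranes and import 0 were called, and Phb2, a prohibitin of the inner membrane, was furthest (0.76, SE 0.20, adjusted p = 0.0915).

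Neutrophil transcripts rose with TNBS, while few markers of other cell types passed the test. Neutrophil markers were called higher for 4 of the 5 tested, from a sum of 0.454 to 1.68 CPM in the normal to 49.98 to 119 CPM in the TNBS libraries. Of 14 epithelial markers 1 was called lower, Car4, and their sum was 22811 to 29822 CPM against 20252 to 24132 CPM. One endothelial marker of 6 (Cdh5), 1 pericyte marker of 5 (Kcnj8) and 1 macrophage marker of 4 (Cd14) were called higher. All 6 endothelial markers had a log2 fold change above 0 (median 1.14). Their sums were 154, 148 and 140 CPM in the normal and 246, 384 and 252 CPM in the TNBS libraries. All 5 tested pericyte markers were above 0 too (median 0.93). Their sums overlapped, at 636, 921 and 1653 CPM against 1577, 1166 and 1341 CPM. No marker of fibroblasts, T and B cells, fat, or enteric neurons and glia was called, and in no list was a gene of the table at 0 in every library. The fibroblast markers summed to 2351, 2131 and 2136 CPM in the normal and 3748, 839 and 1676 CPM in the TNBS libraries, lowest in TNBS 2. The part of these cells in the subunits' values was not tested.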

How the data were processed

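RNA was measured in 6 libraries of mouse colon. The authors deposited whole-number read counts for each gene in each library, per the file headers. CASAVA 1.8, HISAT2 and mm10 come from the submitters' processing notes; the counting tool, its use of strand and the annotation are not stated there. Another 6 columns of per-sample values were not used. Genes were matched by Ensembl identifier to GENCODE vM21 (GRCm38) for coordinates, length and GC content; 174 of 16906 had no match.

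Low genes were removed with filterByExpr (at least 10 counts, total at least 15). Counts were scaled with TMM and tested, TNBS against normal, with the quasi-likelihood test of edgeR 4.0.16 (R 4.3.3; group as the only term, two-sided, Benjamini-Hochberg adjustment over all tested genes, threshold 0.05). CPM are TMM-scaled. The steps were tested on simulated data. The 3 counts that set the detection floor cover counting error only. Alternatives were DESeq2 1.42.0, limma-voom (limma 3.58.1), other scalings, no filter, the replicate number as a block and single libraries left out. Isoform ratios used counts plus 0.5 and exact permutation tests over libraries. Shared sequence is the percent of 50-base stretches of a gene's transcripts found in another gene.

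Members and lists were chosen with earlier results of these data known. Members named in full were those called, the highest and lowest fold change and the highest level per kilobase in each complex, the Sdh genes and the isoform pairs; Ndufs1, Ndufv3, Ndufb11, Atp5g3, Atp5d, Uqcr11, Atp5k, Cox6a1, Cox8a and other members given by value were chosen after their values were seen. From each related list, called genes or the 1 furthest from 0 were named, and Cyc1, Cycs, Sdhaf1, Esrra, Nrf1, Tfam and Ppargc1b were added. The values of 1 member are not reported here.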

Additional observations from a re-analysis of the deposited data

How the results depend on the processing

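The count of 0 members called higher became 1 with DESeq2 (Cox7a2l), 2 with TNBS 2 as the only TNBS library (Cox7a2l and Ndufs7) and 0 to 2 with single libraries left out, the 2 being Cox7a2l and Ndufv3 without TNBS 1; it was 0 in all other alternatives run, and the count of members called lower was 0 in every one. The median log2 fold change of the members ran from 0.060 to 0.32 with single libraries left out. It was 0.0016 with TNBS 1 as the only TNBS library and 0.39 with TNBS 2. Without both normal 3 and TNBS 2, where the members' medians were lowest and highest, it turned to -0.054. Scaling to total counts alone moved the median of all genes to 0.15 and that of the members to 0.31. Of 378 recomputed single fold changes, 23 changed sign. With single libraries left out, values ran from -0.028 to 0.15 for Atp5a1, -0.0077 to 0.27 for Sdhb, -0.20 to 0.15 for Cox6b1, -0.11 to 0.17 for Cox7a2, -0.56 to 3.31 for Ndufa4l2, and -0.042 to 3.02 for the log2 ratio of Ndufa4l2 to Ndufa4. With TNBS 2 as the only TNBS library Cox6b1 was at 0.045, Ndufa4l2 at -0.035 and Cox4i2 at 0.39; with TNBS 1, Atp5a1 was at -0.059, Sdhb at -0.11 and Cox7a2 at -0.14. Adjustment for GC content gave 0.0088 for Atp5f1, -0.13 for Atp5a1, -0.0095 for Sdhb and -0.019 for Cox7a2. Without both normal 3 and TNBS 2, Atp5a1 was at -0.097, Sdhb at -0.11, Sdhc at -0.074 and Cox7a2 at -0.18, and total counts alone gave 0.096 for Cox6b1. The cause of these changes was not tested.

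With the replicate number as a block 0 members were called, the median was 0.20, and 360 genes of the table were called against 289 without it. The deviations of same-numbered libraries correlated at 0.0055, 0.015 and 0.035, and those of differently numbered ones at -0.036 to 0.017. Such small values, on deviations from means of 3 libraries, cannot decide whether same-numbered libraries share more than a number. Over all genes, calls ran from 18 (without normal 2) to 1108 (without TNBS 1) with single libraries left out, and were 1313 with DESeq2. Depth limits the scarce members: Ndufa4l2, Cox4i2 and Cox6b2 were all under 3 CPM in every library.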
